A study of Homo sapiens with 6 samples.

Results

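EPH receptors are receptor tyrosine kinases that bind ephrins, ligands held in the membrane of neighbouring cells. EPHA receptors mainly bind the lipid-anchored ephrin-A ligands and EPHB receptors the transmembrane ephrin-B ligands, and contact signals into both cells. They are known for guiding cell migration, adhesion and the borders between cell groups, and in the gut lining EPHB2 and EPHB3 keep cells in their place along the crypt. C1GALT1 adds galactose to the first sugar of mucin-type O-glycans on secreted and membrane proteins, and receptors such as EPHA2 are among the proteins that the study examined for its effect.

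RNA levels were examined for 10 EPH receptor genes, EPHA1, EPHA2, EPHA4, EPHA7, EPHA10, EPHB1, EPHB2, EPHB3, EPHB4 and EPHB6, chosen by name from the 14 of the human family. The RefSeq accession that the array gives for each probe assigned 17 of 58201 probes to them. The samples were AGS cells, an established line from a human gastric adenocarcinoma, grown in RPMI1640 medium with serum and harvested 48 h after transfection. The si-control group received a nontargeting siRNA and the si-C1GALT1-3 group received 1 siRNA against C1GALT1, with 3 samples in each group and a one-colour Agilent array for every sample. Only 1 C1GALT1 siRNA was profiled, and the labels do not say whether the 3 samples of a group came from separate cultures, so that p-values measure the spread between these samples, which may be technical. Arrays of the same replicate number shared a slide, with si-control always in array column 1 and si-C1GALT1-3 in column 2, so that position on the slide and treatment cannot be told apart. In RNA from whole cultures, fewer cells of a kind and less RNA per cell cannot be told apart either.

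Levels are given as log2 of the normalized intensity, a unit in which a difference of 1 is 2-fold, and differences are si-C1GALT1-3 minus si-control. Levels of different probes are not comparable, since each probe binds its target with its own strength. The threshold for a change was that of the study, an unadjusted p under 0.01 with a difference of at least 2-fold, tested here with limma. Adjusted p stands for the Benjamini-Hochberg value across the 58195 probes with a value in both groups. Over all of these, 961 probes were called higher and 577 lower. A signal counts as detected where the scanning software marked it well above background, which held for 66.2% to 72.7% of gene spots per array.

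Of the 10 receptors, 7 were detected on all arrays with a value. EPHA7 and EPHB6 each missed the mark on 1 array, and EPHB1 was detected on none. The epithelial markers EPCAM, KRT8, KRT18, KRT19 and CLDN4 were detected on all 6 arrays. EPCAM ranged from 15.44 to 15.88. Among markers of other cells, PTPRC, CD3E, CDH5 and COL1A1 were detected on all arrays with a value, PECAM1 and DCN were detected on 2 and 1 of 6 arrays, and COL1A2 on none. Read from the brightest probe of each gene, none of the markers named here passed the threshold. PTPRC probes differed among themselves, from -0.38 to 2.41 on the log2 fold change scale. The value of 2.41 is from a probe detected on no si-control array, so its size is not exact. Of the dimmer PTPRC probes, 2 were called higher, this one and another at 1.90 (adjusted p = 0.150). The other was detected on 2 of 3 si-control arrays and on all si-C1GALT1-3 arrays. The part of the PTPRC signal in the results was not tested.

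A region of low signal on the si-control 2 array decided how several receptors could be read. This block in the middle of the array held 9712 of 60901 gene spots (15.9%). Within it, 36.5% of spots were well above background, against 71.9% outside it on the same array. Signals in the region were therefore set to missing on this array before normalization. The main probes of EPHA2 and EPHB4 lay there, as did further probes of EPHA7, EPHA10 and EPHB2, and each of these 5 probes was compared with 2 si-control arrays.

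The EPHB4 spot shows the size of the loss. Its processed intensity was 5135, 75.6 and 4811 in si-control, the second being the array with the region, and 5588, 5525 and 5127 in si-C1GALT1-3. EPHA2 read 32509, 3369 and 22140 in si-control, against 24333, 25819 and 31308 in si-C1GALT1-3. In both genes the si-control 2 spot stood far below the other 5. EFNA1, the ephrin ligand of EPHA2, was printed at 10 places. On si-control 2 the median of its 3 spots inside the region was 28.0 and that of its 7 spots outside was 3676, whereas on si-control 1 the same spots gave 3800 and 3788.

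**Figure D1:**
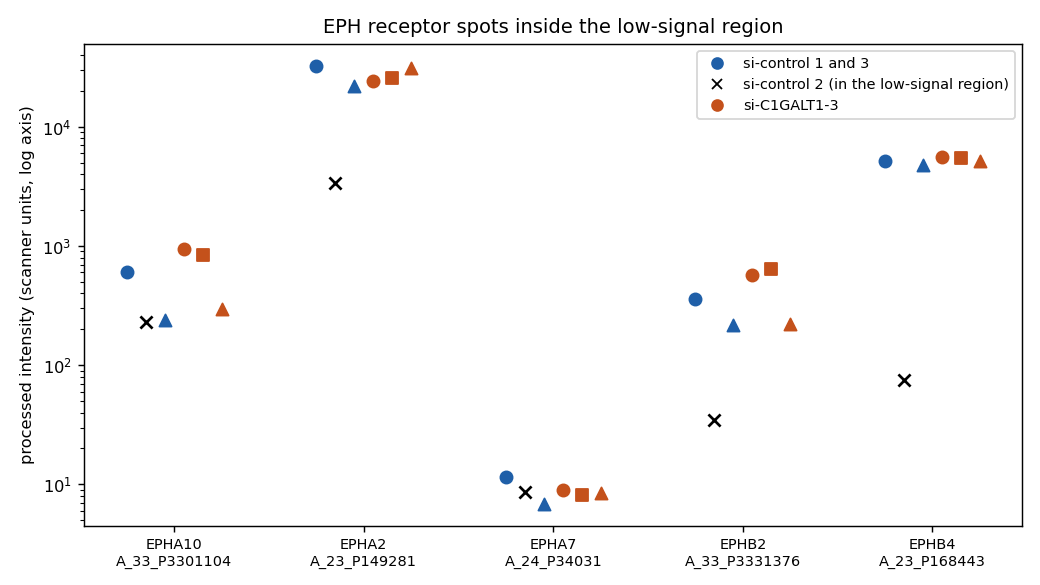
Processed intensity (log axis, scanner units, before normalization between arrays) of the 5 EPH receptor probes printed in the low-signal region of si-control 2, with 1 point per array and circles, squares and triangles for slides 1, 2 and 3. The si-control 2 spots (crosses) of EPHA2, EPHB2 and EPHB4 lie far below their other 5 arrays, at 3369 for EPHA2 and 75.6 for EPHB4.

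C1GALT1 itself served as the check of the knockdown. Its probe read 12.22, 13.03 and 12.62 in si-control 1, 2 and 3, compared with 11.76, 11.98 and 11.13 in si-C1GALT1-3 1, 2 and 3. All si-C1GALT1-3 values were below all si-control values. C1GALT1 differed by -1.0 on the log2 scale (SE 0.31, 95% interval -1.77 to -0.23, adjusted p = 0.265), and its unadjusted p was under 0.05 but not under 0.01. C1GALT1C1, the chaperone that C1GALT1 needs to fold, differed by 0.27 (SE 0.17, adjusted p = 0.558) and its groups overlapped.

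None of the 10 EPH receptors passed p under 0.01 and 2-fold, where 2.64% of all probes did. A t-test, the test that the study states for its other experiments, also called 0 of 10 on the same values. By limma, 2 receptors had an unadjusted p under 0.05, EPHA1 and EPHA10, beside 13.8% of all probes, and the t-test gave 1 such receptor. No receptor had an adjusted p under 0.05, as 0.0842% of all probes did. Fold changes were above 0 for 5 receptors and below 0 for 5, the undetected EPHB1 included, with a median of 0.0030, and the median over all probes was -0.0048. The groups did not overlap for EPHA10 alone, which was lower after knockdown, beside 21.5% of all probes in either direction.

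EPHA2, a receptor often abundant in carcinoma cells and a main receptor of ephrin A1, had group means that lay close together. It read 14.55 and 14.78 in si-control 1 and 3, against 14.37, 14.60 and 15.20 in si-C1GALT1-3. The lowest and the highest value were both from si-C1GALT1-3, so the groups overlapped. With 2 si-control arrays, EPHA2 differed by 0.06 on the log2 scale (SE 0.30, 95% interval -0.72 to 0.84, adjusted p = 0.969). The pair on slide 1 differed by -0.18 and the pair on slide 3 by 0.42. With the region kept, the difference was 0.92 (adjusted p = 0.705), which rested on the low si-control 2 spot. The sign was not stable, at -0.10 under scaling to the 75th percentile.

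EPHA1, a receptor of ephrin A1 found in epithelia, was higher after knockdown on each slide but short of the threshold. Its levels were 12.39, 12.53 and 12.98 in si-control, against 12.96, 13.28 and 13.69 in si-C1GALT1-3. Both arrays of slide 3 were the highest of their group, and the si-control 3 value lay just above si-C1GALT1-3 1, so the groups overlapped. EPHA1 differed by 0.67, or 1.60-fold (SE 0.26, 95% interval 0.04 to 1.31, adjusted p = 0.339), with an unadjusted p under 0.05. Within slides 1, 2 and 3 the differences were 0.57, 0.75 and 0.71, and with the slide as a block the SE was 0.11 and the adjusted p 0.190, still under 2-fold although the unadjusted p was then under 0.01. The spot lies near the edge of the low-signal region. With the region widened by 10 rows and columns the difference was 0.62 (adjusted p = 0.458), with 2 si-control arrays. Its unadjusted p was then not under 0.05. Nor was it under scaling to the 75th percentile, by the t-test or with the region kept.

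EPHA4, which binds ligands of both ephrin classes, read 12.60, 12.83 and 12.34 in si-control. After knockdown it read 12.54, 12.71 and 12.39. The si-C1GALT1-3 values lay within the range of si-control, with slide 2 the highest in both groups. The log2 fold change of EPHA4 was -0.04 (SE 0.18, 95% interval -0.49 to 0.41, adjusted p = 0.961), and it was 0.043 with no normalization.

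EPHA10, a pseudokinase that keeps the receptor's form without kinase activity, came nearest to the threshold. Its brightest probe, A_23_P385199, read 11.40, 11.14 and 11.08 in si-control, against 10.01, 10.19 and 10.57 in si-C1GALT1-3. Every si-C1GALT1-3 value was below every si-control value, and slide 3 held the smallest gap. This was a log2 difference of -0.95 (SE 0.20, 95% interval -1.43 to -0.46, adjusted p = 0.151), or a level 1.93-fold lower, which had an unadjusted p under 0.01 but stopped short of 2-fold. With the slide as a block, the unadjusted p of EPHA10 was no longer under 0.01 (adjusted p = 0.221). The slide differences were -1.39, -0.95 and -0.51. Leaving out si-control 3 gave -1.0 and leaving out si-C1GALT1-3 3 gave -1.10, both past the threshold, as was the value with the region kept, -1.06 (adjusted p = 0.302).

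The other detected probe of EPHA10 did not share this direction. This probe, A_33_P3301104, which the array assigns to the same transcript, read 8.89 and 8.42 in si-control 1 and 3, against 9.63, 9.48 and 8.53 in si-C1GALT1-3. Its si-C1GALT1-3 values 1 and 2 were above both si-control values, and value 3 lay between them. The log2 fold change of this probe was 0.56 (SE 0.41, adjusted p = 0.620, 2 si-control arrays), and the difference between the 2 probes was not tested. The remaining probe, for another transcript, was detected on no array. By the median over the probes of the gene, the undetected one included, EPHA10 differed by -0.25, so this size is not exact.

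EPHA7, a receptor best known from the developing nervous system, was dim. Its brightest probe read 5.96, 5.24 and 5.97 in si-control, of which the second was not well above background, and 7.21, 5.62 and 6.04 in si-C1GALT1-3. The si-C1GALT1-3 1 array stood above the other 5, which ran from 5.24 to 6.04, and the groups overlapped. EPHA7 differed by 0.57 on the log2 scale (SE 0.46, 95% interval -0.57 to 1.70, adjusted p = 0.650), and the slide differences were 1.25, 0.38 and 0.08. With an array left out, the EPHA7 difference ranged from 0.11 to 0.90. The other 2 EPHA7 probes were detected on no array, and their fitted differences, -0.70 and 0.01, are between undetected signals.

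**Figure D2:**
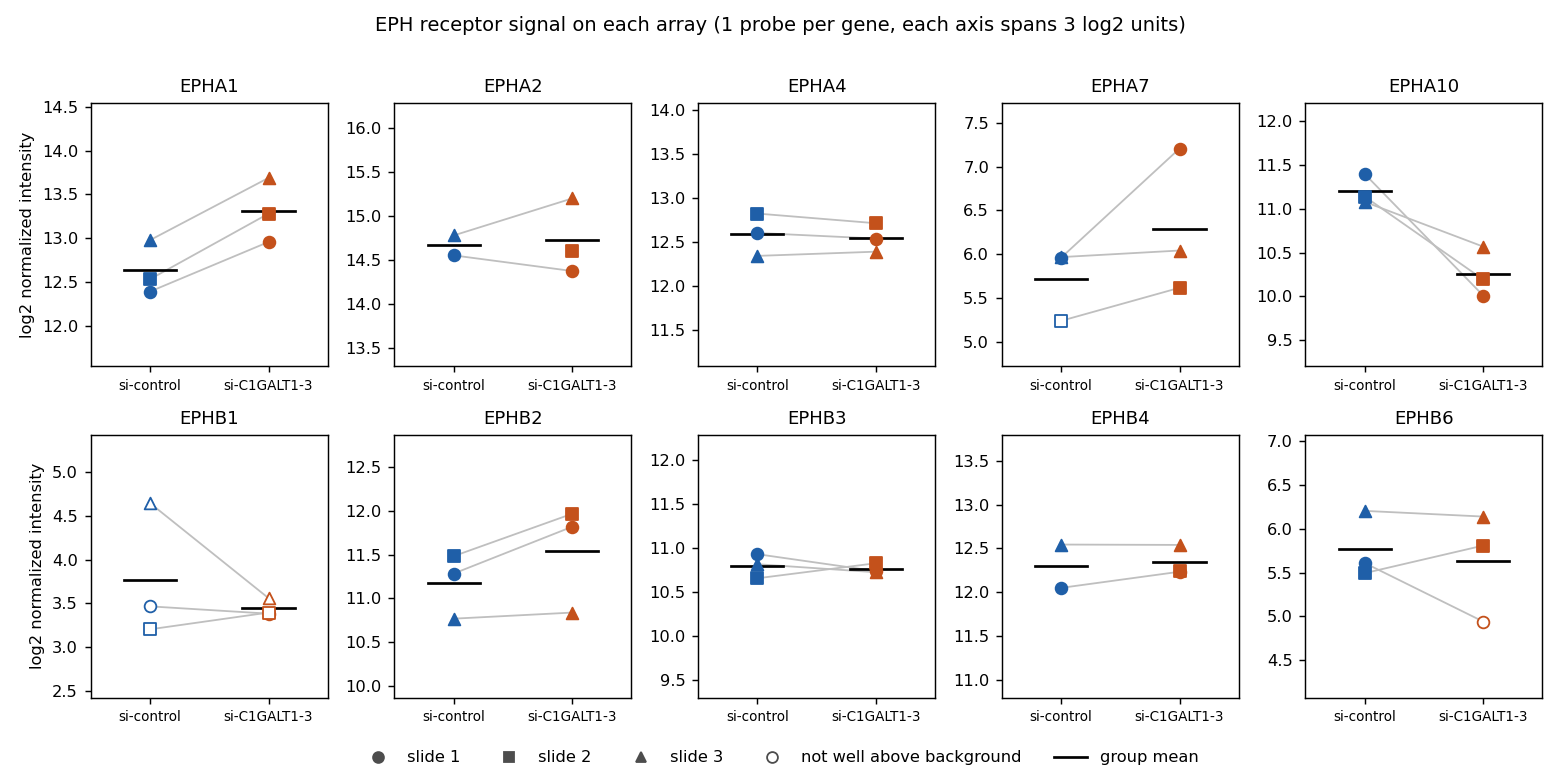
Log2 normalized intensity of the 10 EPH receptors on each array (1 probe per gene), with circles, squares and triangles for slides 1, 2 and 3, lines joining arrays of a slide, bars for group means and open symbols where the signal was not well above background. Each axis spans the same range, and EPHA10 is the receptor whose groups do not overlap, from 11.08 to 11.40 in si-control and from 10.01 to 10.57 in si-C1GALT1-3.

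EPHB2, a receptor of the intestinal crypt, was read by 3 probes that all gave positive differences short of the threshold. The brightest read 11.28, 11.48 and 10.77 in si-control, against 11.82, 11.97 and 10.84 in si-C1GALT1-3. Slide 3 was the lowest in both groups, and the groups overlapped through it. This gave a log2 fold change of 0.36 (SE 0.36, 95% interval -0.54 to 1.26, adjusted p = 0.716), with slide differences of 0.53, 0.48 and 0.07.

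The second EPHB2 probe, A_33_P3880302, read 10.09, 10.40 and 9.84 against 11.00, 10.94 and 9.86, and the slides differed by 0.91, 0.54 and 0.02. The last one, A_33_P3331376, lies in the low-signal region and read 8.09 and 8.29 in si-control 1 and 3, against 8.92, 9.09 and 8.13. On slide 3 the values of all 3 probes were near equal or lower after knockdown, and slide 1 had the largest gap. The log2 fold changes were 0.49 (adjusted p = 0.610) for the second probe and 0.52 (adjusted p = 0.576, 2 si-control arrays) for the last, which read 1.35 with the region kept.

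EPHB3, which acts beside EPHB2 in the crypt, read 10.93, 10.66 and 10.82 in si-control, against 10.74, 10.83 and 10.72 in si-C1GALT1-3. The 6 values lay close together and the groups overlapped. Among the probes that stand for the receptors EPHB3 had the narrowest interval, with a log2 fold change of -0.04 (SE 0.13, 95% interval -0.37 to 0.30, adjusted p = 0.951). With no normalization it was 0.088.

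EPHB4, the partner of ephrin B2 at the border of arteries and veins and also present in epithelial tumours, was read by 2 probes. The main probe read 12.05 and 12.54 in si-control 1 and 3, against 12.23, 12.25 and 12.54 in si-C1GALT1-3. The groups overlapped, and both arrays of slide 3 were alike. EPHB4 differed by 0.04 on the log2 scale (SE 0.23, 95% interval -0.55 to 0.64, adjusted p = 0.971, 2 si-control arrays).

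The other EPHB4 probe, outside the low-signal region and with all 6 arrays, read 10.83, 11.35 and 11.41 against 11.04, 11.13 and 11.48, a difference of 0.02 (adjusted p = 0.991). Both probes thus gave differences near 0 with the region left out. With the region kept, the main probe gave 1.89 (SE 1.58, adjusted p = 0.705) and the other -0.08 (adjusted p = 0.954).

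EPHB1, a receptor of nerve cells, and EPHB6, a second pseudokinase, were at the low end of detection. EPHB1 read 3.47, 3.20 and 4.64 against 3.38, 3.40 and 3.56, none of them well above background, so any difference is one between undetected signals. EPHB6 read 5.61, 5.49 and 6.20 in si-control, against 4.94, 5.81 and 6.14 in si-C1GALT1-3, with the value of 4.94 not well above background. The EPHB6 groups overlapped, and slides differed in sign, by -0.67, 0.31 and -0.06. The log2 fold change of EPHB6 was -0.14 (SE 0.37, 95% interval -1.05 to 0.77, adjusted p = 0.927).

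**Figure D3:**
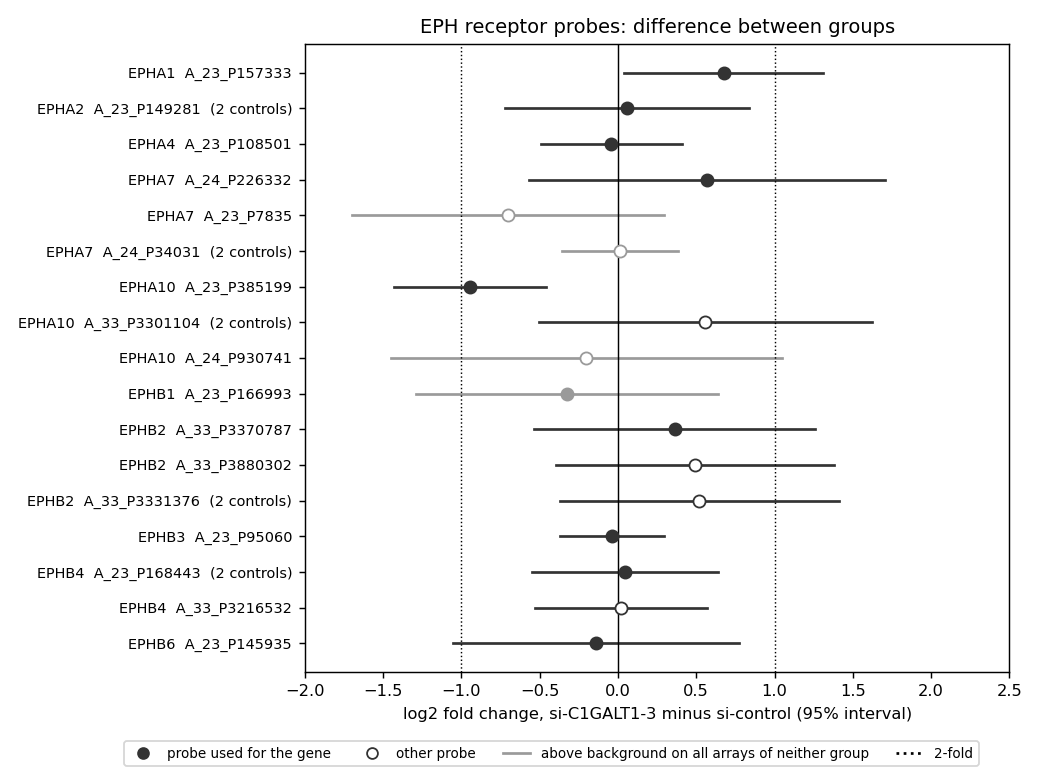
Log2 fold change (si-C1GALT1-3 minus si-control) with its 95% interval for the 17 EPH receptor probes, with filled points for the probe that stands for the gene, open points for its other probes, grey for probes that were above background on all arrays of neither group, and dotted lines at 2-fold. The intervals of EPHA1 (0.04 to 1.31) and of the main EPHA10 probe (-1.43 to -0.46) lie on 1 side of 0, and the second EPHA10 probe lies at 0.56.

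With 3 arrays a group, or 2 against 3, the precision differed between receptors, with an SE from 0.13 for EPHB3 to 0.46 for EPHA7. For 4 receptors, EPHA2, EPHA4, EPHB3 and EPHB4, the 95% interval lay within 2-fold in either direction, as it did for 48.2% of all probes. For EPHA1, EPHA7, EPHA10, EPHB2 and EPHB6 the interval reached past 2-fold. These intervals come from the fit without the slide as a block. With the block the SE was smaller for EPHB2 (0.15 in place of 0.36) and for EPHB6 (0.24 in place of 0.37). Both intervals would then lie within 2-fold, so the place of these receptors depends on the block. For EPHA10 the SE was larger with the block (0.22 in place of 0.20). Over the receptors with a value on a slide, the median difference was -0.07, 0.25 and 0.02 on slides 1, 2 and 3 (SD 0.17).

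The pattern most like EPHA2 over the 5 arrays on which it has a value was sought among 14160 genes detected on all arrays, by the root mean square distance of log2 values centred on each gene's mean. EDEM1, which helps to clear misfolded glycoproteins from the endoplasmic reticulum, was nearest at 0.05. The cytokine IL17B (0.06) and the secretory cell transcription factor BHLHA15 (0.06) followed. Since the EPHA2 groups overlapped, its pattern reflects mostly the spread between arrays. Among 14160 genes on 5 arrays, distances this small can arise by chance, and shared regulation was not tested.

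The 4 remaining EPH receptors gave no call. EPHA8, the only one of them detected on all arrays, read 8.71, 7.82 and 8.49 against 7.85, 7.94 and 7.81, a log2 fold change of -0.47 (SE 0.25, adjusted p = 0.481) with overlapping groups. EPHA3 was detected on si-control 3 alone, at 7.93, against 4.35 on si-control 1 and 3.14 to 4.64 in si-C1GALT1-3. The groups of EPHA3 overlapped, and no fold change is given, since the gap rested on that single detected array (adjusted p = 0.449, 2 si-control arrays). EPHA5 was detected on si-C1GALT1-3 2 alone, at 7.05, against 3.12 to 3.22 elsewhere, and EPHA6 ranged from 5.45 to 7.70, detected on 3 of 6 arrays. These values are from the brightest probe of each gene, and the other probes of EPHA3, EPHA6 and EPHA8 were detected on no array.

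Among the 8 ephrins, the ligands of these receptors, 1 passed the threshold as higher and 0 as lower. EFNA3, a lipid-anchored ephrin, read 11.19, 11.44 and 11.02 in si-control, against 12.69, 12.69 and 12.41 in si-C1GALT1-3. All knockdown values were above all si-control values. EFNA3 rose by 1.38 on the log2 scale, or 2.60-fold (SE 0.17, adjusted p = 0.0823), where 1.65% of all probes were called higher.

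EFNA1, which encodes the ephrin A1 that binds EPHA1 and EPHA2, read 11.60, 11.91 and 11.59 against 12.71, 12.65 and 12.44. The groups did not overlap, and the gap was smallest on slide 2. Its log2 fold change was 0.90 (SE 0.16, adjusted p = 0.125), past the unadjusted p but short of 2-fold, and it was 1.01 without si-control 2 and 1.34 with the region kept, both past the threshold. EFNA4, also an EPHA ligand, read 12.65 and 12.89 in si-control 1 and 3, against 13.40, 13.46 and 13.57, again without overlap. The log2 fold change of EFNA4 was 0.71 (SE 0.17, adjusted p = 0.207, 2 si-control arrays), and it was 1.42 with the region kept. Groups without such overlap, higher after knockdown, made up 3 of 8 ephrins and 11.0% of all probes.

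The other ephrins gave overlapping groups. EFNA2 differed by 0.11 (2 si-control arrays, 0.96 with the region kept), EFNA5 by -0.44, EFNB1 by -0.25 and EFNB2, the ligand of EPHB4, by 0.15. EFNB3 was detected on 2 of 6 arrays, and its fitted difference of 0.66 (adjusted p = 0.640) ranged from 0.093 to 1.05 with an array left out. The median over the 8 ephrins was 0.40 on the log2 fold change scale, but 0.15 with dim probes left out, 0.20 with normexp background correction and 0.69 with the region kept, and that of the 10 receptors was 0.0030.

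Proteins that carry the EPH signal inside the cell, such as SRC-family kinases, NCK adaptors and guanine nucleotide exchange factors, were read as a list of 24 genes, of which 0 passed the threshold by limma and 7 had an unadjusted p under 0.05, beside 13.8% of all probes. Without si-control 3, 2 passed as lower, and without si-C1GALT1-3 1, 3 had an unadjusted p under 0.05. Fold changes were above 0 for 9 and below 0 for 15, with a median of -0.12, which ranged from -0.26 to -0.02 with an array left out. With no normalization 12 were above 0 and 12 below, the median was -0.03 and 1 gene had an unadjusted p under 0.05. The groups did not overlap for 9 of them, 3 higher and 6 lower, beside 11.0% and 10.4% of all probes, and the t-test called 0. Of the 3 proteases known to cut EPH receptors or ephrins at the cell surface, 1, MMP14, had non-overlapping groups with higher values after knockdown (11.0% of all probes), at 13.33, 12.85 and 13.07 against 13.87, 13.44 and 14.10, a difference of 0.73 (SE 0.23, adjusted p = 0.272). ADAM10 differed by 0.08 (adjusted p = 0.908) and ADAM17 by -0.0029 (adjusted p = 0.999).

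Of 36 receptor tyrosine kinases outside the EPH family, 1 passed the threshold in each direction, and with the slide as a block 1 passed higher and 2 lower. Without si-C1GALT1-3 3, 2 passed in each direction, and the total was 2 to 4 over all arrays left out in turn. EGFR, the epidermal growth factor receptor, read 12.51, 12.47 and 11.84 in si-control, against 10.70, 10.92 and 11.01 in si-C1GALT1-3. It fell by 1.40 on the log2 scale (SE 0.23, adjusted p = 0.112), where 0.991% of all probes were called lower, and its other 2 probes also had non-overlapping groups, at -1.12 and -1.49. TYRO3, a receptor of the TAM family, read 10.87, 11.00 and 11.32 against 12.49, 12.22 and 12.03. TYRO3 rose by 1.18 (SE 0.20, adjusted p = 0.115). No EPH receptor of the 10 reached the size of either change, although the difference between the lists was not tested.

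**Figure D4:**
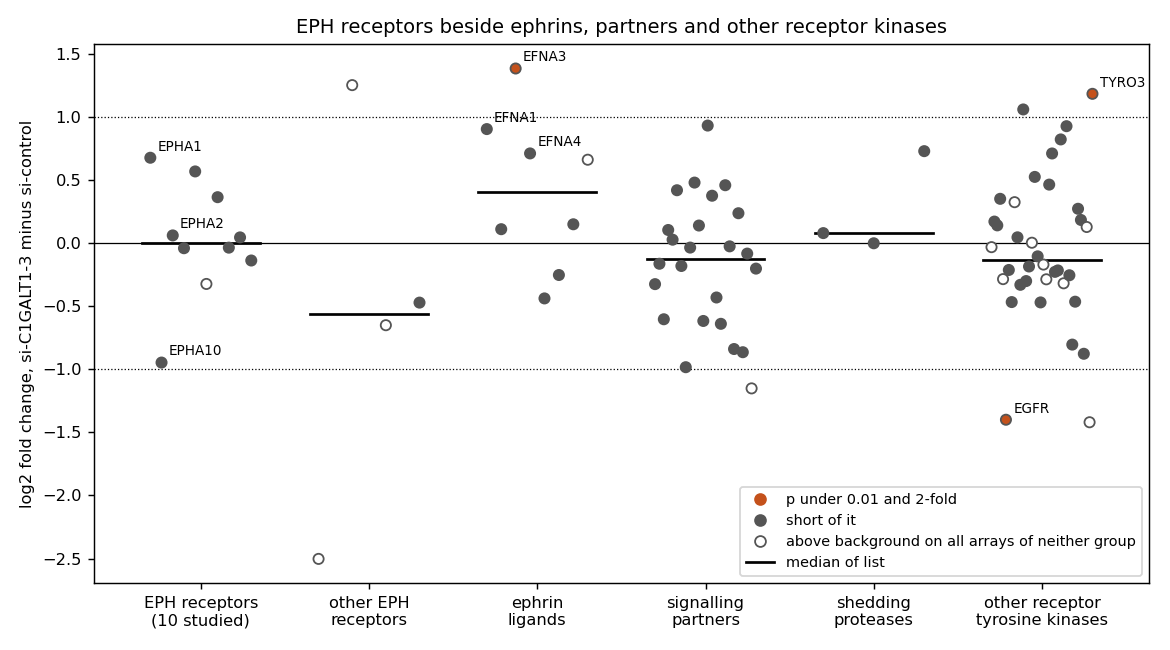
Log2 fold change (si-C1GALT1-3 minus si-control) of the 10 EPH receptors and of 5 further gene lists, with 1 point per gene, bars for list medians, orange points for genes past p under 0.01 and 2-fold, open points for probes above background on all arrays of neither group, and dotted lines at 2-fold. EFNA3 (1.38), TYRO3 (1.18) and EGFR (-1.40) are the called genes, and the EPH receptors lie between -0.95 and 0.67.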

How the data were processed

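Total RNA of 6 AGS samples was hybridized to one-colour Agilent arrays. The authors deposited the scanner output of Agilent Feature Extraction version 10.5.1.1, whose values are fluorescence intensity per spot, already background-corrected and detrended by that software, with no normalization between arrays. A deposited series table of background-subtracted intensity for the same spots served as an alternative.

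From the processed signal, log2 values of gene spots were taken. Spots marked as outliers (100 to 424 per array) and the low-signal region of si-control 2 became missing values, quantile normalization followed, spots of a probe were averaged, and groups were compared with limma version 3.58.1 in R version 4.3.3. Quantile normalization and limma are the study's methods, and the other steps were chosen here. Probes were named through RefSeq genes of GRCh38.p14 (31104 of 58201 had a symbol). The array design names another build, so no coordinates are given. A gene was read from the probe with the highest mean. Named genes are C1GALT1, C1GALT1C1, all EPH receptors and ephrins, called genes of the other lists and the 3 patterns nearest EPHA2; no receptor passed, so no second pattern was sought. The proteases and the markers were named after their values were seen. The 10 receptors, the lists and the mask were chosen with earlier results of these data known.

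Arrays of the same number share a slide per the file headers, and their deviations from the group means correlated at 0.198, 0.215 and 0.329, so the numbers were taken as pairs and the slide was fitted as a block in an alternative. Other alternatives were the 75th percentile or no normalization, normexp on the median spot signal (offset 50; the mean spot signal was not used here), dim probes left out, a trend and robust prior, a t-test, which the study states for its other experiments, outliers kept, the region kept, the series table (values under 10 set to 10), the median over probes and each array left out. The region widened by 10 was chosen after seeing the data. The number of arrays limits the precision. Part of the marker list is not reported here.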

Additional observations from a re-analysis of the deposited data

How the results depend on the processing

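The count of EPH receptors past the threshold was 0 and became 1, EPHA10, with the region kept and with the series table, and ranged from 0 to 1 when each array was left out in turn. Over the other lists together, 3 genes passed, with 4 to 6 when an array was left out; it was 5 without si-control 2, 6 without si-control 3 and 5 without si-C1GALT1-3 3. The median log2 fold change of the 10 receptors stayed between -0.07 and 0.13 under every alternative run. Receptors near 0 changed sign: EPHA2 was -0.10 with the 75th percentile, EPHA4 was 0.043 and EPHB3 0.088 with no normalization, and EPHB4 was -0.023 with normexp and -0.00022 by the median over probes; the cause was not tested. With an array left out, values ranged from -0.18 to 0.23 for EPHA2, -0.17 to 0.075 for EPHA4 and -0.58 to 0.11 for EPHB1 (undetected on all arrays). They ranged from -0.11 to 0.027 for EPHB3, -0.20 to 0.29 for EPHB4, -0.39 to 0.21 for EPHB6 and -0.20 to 0.43 for EFNA2. EPHA5 ranged from -0.052 to 1.92 and EPHA6 from -1.12 to 0.0089. EPHA5 was detected on si-C1GALT1-3 2 alone and EPHA6 on part of the arrays, so these differences include undetected signals and their sizes are not exact. EPHB2 ranged from 0.15 to 0.71, EPHA8 from -0.74 to -0.29, EFNA5 from -0.73 to -0.29, EFNB1 from -0.54 to -0.10 and EFNB2 from 0.076 to 0.26. EPHA3 passed without si-control 1, which leaves 1 si-control array against undetected signals and is no test of the gene. C1GALT1 passed with dim probes left out, and EGFR missed with no normalization (-1.27).

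With the replicate block, which pairs arrays of a slide, the count of EPH receptors past the threshold was 0, and the block changed no call of a named gene; over the other lists together it called 4 genes in place of 3. Over all probes, 961 were called higher and 577 lower, against 474 and 706 with the region kept, 364 and 538 with the series table, 783 and 295 with no normalization, 500 and 420 with normexp, 938 and 796 with the 75th percentile and 560 and 336 by the t-test; by the median over probes, 503 and 309 of 22438 genes. With an array left out, calls ranged from 653 to 1064 higher and from 473 to 768 lower. The 75th percentile moved the median of all probes to -0.11. An adjusted p under 0.05 was reached by 49 probes, the smallest value being 0.0499, by 2 with the t-test, by 429 with normexp, by 545 with dim probes left out, and by 0 with the replicate block or with any 1 array left out. Signal over background limits EPHB1, EPHB6, EPHA7, EPHA3, EPHA5, EPHA6 and EFNB3.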
